A study of Homo sapiens with 16 samples.

Results

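Read-through genes are annotated transcription units that start in or near one gene, continue through the end of that gene and splice into its downstream neighbour. They were collected here by name and level. A row of the deposited table was taken when its gene name joins the names of 2 other rows with a hyphen and its mean over the 6 RNA-seq libraries reached 0.5 TPM (an RNA level per unit of transcript length, scaled to the same sum in every library). Of the 58884 genes in the table, 120 had such a name and 64 of these reached the level, with 63 distinct names because ARMCX5-GPRASP2 is listed under 2 gene identifiers. The members were thus chosen by their mean TPM, and that mean is not a result. The 2 lowest inside the cut-off were DNAAF4-CCPG1 at a mean of 0.518 TPM and ABHD14A-ACY1 at 0.557 TPM, and the 2 highest outside it were TMEM256-PLSCR3 at 0.490 TPM and PPAN-P2RY11 at 0.487 TPM. Among the 56 names left out, 12 were listed at 0 in every library. The 64 read-through genes have 126 parent genes between them, 63 upstream and 63 downstream.

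The libraries come from 293T cells, a human embryonic kidney line, of wild type genotype, treated for 72 h with scramble siRNA, SETD2 siRNA or hnRNP L siRNA, with 2 libraries per siRNA. The study asked how the transcriptome responds to loss of SETD2, the histone methyltransferase that places H3K36me3 behind elongating RNA polymerase II, and of hnRNP L, an RNA-binding protein of CA-rich sequences that regulates splicing. Depletion by siRNA is partial and transient, and the scramble siRNA libraries are the only controls. The study describes its sequencing replicates as independent biological ones, and the labels do not say which cultures the libraries came from, so p-values measure the spread between these libraries. The SETD2 level was 13.4 and 11.7 TPM in scramble libraries, 4.24 and 4.91 TPM in SETD2 siRNA libraries, and 10.8 and 10.2 TPM in hnRNP L siRNA libraries. The HNRNPL level was 341 and 457 TPM in scramble libraries, 395 and 413 TPM in SETD2 siRNA libraries, and 25.04 and 28.8 TPM in hnRNP L siRNA libraries, so both targets were low in the libraries labelled for them. For the cell type, VIM, NEFL, NEFM and PAX2 were above 1.6 TPM in all 6 libraries and PTPRC and KRT5 were listed at 0 in each, while ALB, a marker set down as absent, reached at most 0.40 TPM and COL1A1, also set down as absent, lay between 2.83 and 5.17 TPM. Every library sums to 1000000 TPM, which keeps no read counts, so the depth behind a value is unknown and no counting interval can be given.

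Transcription of a protein-coding gene normally ends after a polyadenylation signal is read, the nascent RNA is cleaved by the cleavage and polyadenylation factors, and a 5′ to 3′ exonuclease degrades the RNA still attached to the polymerase. Where this end is bypassed, the polymerase enters the next gene, and a splice site of the first gene can pair with one of the second. The product contains exons of both and can encode a fusion protein, keep the frame of 1 parent, or carry an early stop codon that makes it a substrate of nonsense-mediated decay.

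Most of the genes collected by name showed this structure in the annotation used for positions, GENCODE release 44 on hg38. All 64 gene identifiers were found there, 58 of them with the read-through tag. The 6 without the tag were ARMCX5-GPRASP2 under both identifiers, SLX1A-SULT1A3, SLX1B-SULT1A4, DNAAF4-CCPG1 and PALM2-AKAP2. ARMCX5-GPRASP2 under ENSG00000286237 does not show the structure and was kept by its name. It starts inside GPRASP2, 113327 bases from the start of ARMCX5, and 94.8% of its exonic bases belong to neither parent. PALM2-AKAP2 has become the single gene PALM2AKAP2 in that release and its parents are no longer separate there, so the remaining 63 could be placed against both parents. In 63 of 63 the parents lie on the same chromosome and strand and the first-named parent is the 5′ one. The parents overlap in 8 loci, are under 5 kb apart in 24 and are 5 kb or more apart in 31. The first base of the read-through gene lay a median of 331 bases from that of its upstream parent, and its last base a median of 146 bases from that of its downstream parent. A median of 4.4% of a read-through gene's exonic bases belong to neither parent, and 19 of the 63 have no exonic base of their own. A read inside an exon of those 19 genes could come from a parent as well, which leaves the junctions between exons as the positions that tell them apart.

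For 57 of the 63, an intron joins an exon within the upstream parent to an exon within the downstream parent. The sequences made by this joining are shown for the 7 such genes called in a comparison below, since neither parent has the joint in the annotation. The joint is not the only difference, as some of these genes have other junctions or exonic bases of their own. It is also not in every transcript, with 1 of 2 for INO80B-WBP1 and for RBAK-RBAKDN and 1 of 3 for CHKB-CPT1B. It is in 2 of 4 for ARPC4-TTLL3 and 3 of 6 for COMMD3-BMI1, and in all transcripts of NME1-NME2 and ISY1-RAB43. Each line gives the last 15 bases of the exon in the upstream parent in lower case and the first 15 bases of the exon in the downstream parent in capitals, 5′ to 3′ on the transcribed strand, read from the hg38 genome at GENCODE 44 positions.
INO80B-WBP1: cccccttttggctacCTTCGAGAGCTGTGC
CHKB-CPT1B: tgttcctgagtttgaGTGCCGACCAACCCC
ARPC4-TTLL3: gagttccttaagaatGTTTCCCGGTCCTCT
NME1-NME2: catacaagttggcagGACCATGGCCAACCT
COMMD3-BMI1: atggaacaattacagGATTTTTTATCAAGC
ISY1-RAB43: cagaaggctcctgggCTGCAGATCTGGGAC
RBAK-RBAKDN: agacaaacattcaagCCGCCCTGCCCGCAG
The introns removed are chr2:74457861-74459642 on the plus strand for INO80B-WBP1, chr22:50577935-50579035 on the minus strand for CHKB-CPT1B, chr3:9804014-9810620 on the plus strand for ARPC4-TTLL3, chr17:51161273-51166826 on the plus strand for NME1-NME2, chr10:22319019-22326430 on the plus strand for COMMD3-BMI1, chr3:129095170-129130087 on the minus strand for ISY1-RAB43 and chr7:5063756-5072361 on the plus strand for RBAK-RBAKDN. The joining intron of INO80B-WBP1 is 1782 bases long and that of ISY1-RAB43 34918 bases, within a range of 219 to 105499 bases over the 57. Of the 56 joining introns whose ends were read, 55 start with GT and end with AG, and the RBAK-RBAKDN intron starts with GC.

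Reading frames also differed among the read-through genes. In 30 the annotated coding sequence is in frame with both parents over at least 30 bases each, in 11 with the upstream parent alone, in 5 with the downstream parent alone and in 2 with neither, while 16 have no coding transcript. NME1-NME2, COMMD3-BMI1 and ARPC4-TTLL3 are of the first kind, ISY1-RAB43 and RBAK-RBAKDN keep the frame of the upstream parent, and INO80B-WBP1 and CHKB-CPT1B have no coding transcript. All transcripts of INO80B-WBP1, HNRNPUL2-BSCL2, MICOS10-NBL1, INMT-MINDY4 and EEF1E1-BLOC1S5 are annotated as targets of nonsense-mediated decay, and 33 of the 64 have at least 1 such transcript. The polyadenylation motif AATAAA, searched on the transcribed strand in the last 50 bases of the gene, stood in 63.9% of 61 upstream parents and in 57.4% of 61 downstream parents. It stood in 58.6% of 14532 tested protein-coding and lncRNA genes other than read-through genes, a set that includes tested parents. The motif CACACA, the CA repeat type of sequence that hnRNP L binds, stood in the first 300 bases of 5.36% of 56 joining introns and of 7.9% of 166573 introns of tested genes. These are matches of letters and not binding sites.

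The levels are given as a description, since the mean TPM chose the members. Their median was 4.05 TPM over the 6 libraries. The level of the read-through gene was below both parents in 42 cases, between them in 19 and above both in 3. As a share of the locus sum, which is the TPM of the read-through gene plus both parents, the median read-through gene took 6.39%. Of the 64 genes, 40 took under 10%, 15 took 10% to under 25%, 6 took 25% to under 50% and 3 took more. Because exons are shared, these shares are what the authors' quantification assigned and not a direct count of joined molecules.

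**Figure D1:**
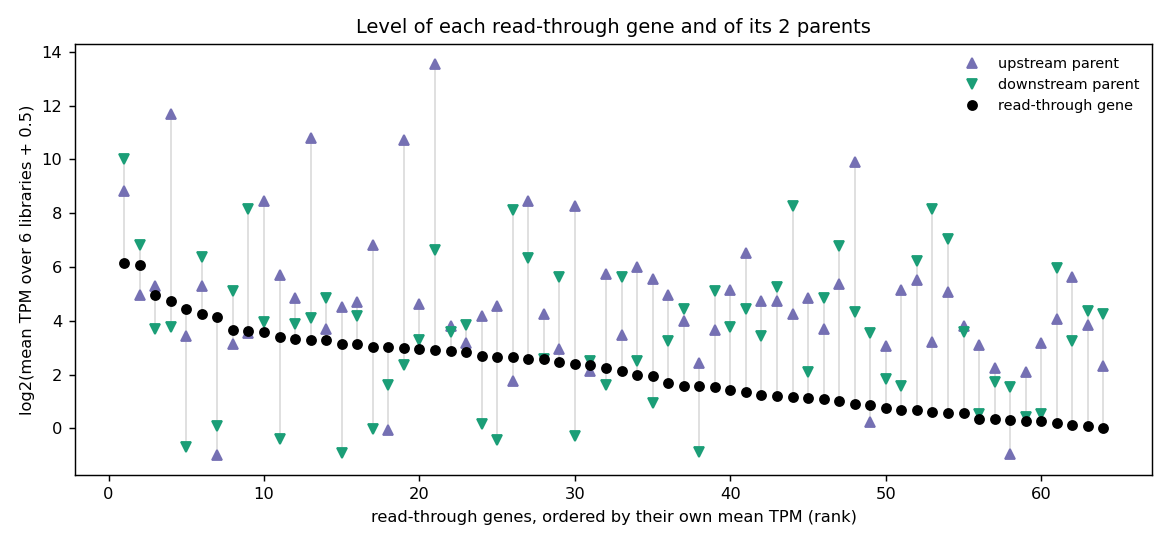
Mean level over the 6 libraries as log2(TPM + 0.5) for each of the 64 read-through genes (black circles, ordered by rank), its upstream parent (triangles pointing up) and its downstream parent (triangles pointing down). In 42 of the 64 columns the black circle is the lowest mark, and in 3 it is the highest.

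The highest level belonged to NME1-NME2, which joins genes of 2 nucleoside diphosphate kinases, at a mean of 71.3 TPM, with its parents at 453 and 1040 TPM. FMC1-LUC7L2 followed at 66.4 TPM. It joins an ATP synthase assembly factor to a U1 snRNP-associated splicing factor and stood between FMC1 at 30.6 TPM and LUC7L2 at 112 TPM. HNRNPUL2-BSCL2, which joins an hnRNP gene to the gene of seipin, had 30.5 TPM and RPS10-NUDT3, which joins a ribosomal protein gene to a Nudix hydrolase gene, had 26.3 TPM. BOLA2-SMG1P6 had 21.0 TPM, COMMD3-BMI1 18.6 TPM, IQCJ-SCHIP1 17.3 TPM and ARPIN-AP3S2 12.0 TPM. A high level did not mean a high share. RPS10-NUDT3 took 0.791% ± 0.15 (SD over 6 libraries) of a locus that holds RPS10 at 3307 TPM, whereas HNRNPUL2-BSCL2 took 37.5% ± 0.90.

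The 3 largest shares belonged to loci in which at least 1 parent was below 0.5 TPM. IQCJ-SCHIP1 took 96.8% ± 4.8 (SD, n = 6), with IQCJ listed at 0 in every library and SCHIP1 between 0.06 and 2.27 TPM. Its own level was 15.8 and 20.0 TPM in scramble libraries, 15.6 and 20.0 TPM in SETD2 siRNA libraries, and 14.4 and 17.9 TPM in hnRNP L siRNA libraries, and the 3 groups overlapped. FAM47E-STBD1, which ends in a glycogen-binding protein gene, took 71.5% ± 3.5, BOLA2-SMG1P6 66.8% ± 5.5, HNRNPUL2-BSCL2 37.5% ± 0.90 and TVP23C-CDRT4 34.2% ± 11. The last 2 had better expressed parents, with HNRNPUL2 at 38.5 TPM, BSCL2 at 12.3 TPM, TVP23C at 3.86 TPM and CDRT4 at 5.15 TPM. In TVP23C-CDRT4 the share differed within a group as much as between groups, at 23.3% and 53.8% in the 2 hnRNP L siRNA libraries. The 3 smallest shares were those of RPL36A-HNRNPH2 at 0.0566% ± 0.013, HSPE1-MOB4 at 0.136% ± 0.056 and URGCP-MRPS24 at 0.345% ± 0.22. Each contains a very abundant parent, namely RPL36A at 12111 TPM, the mitochondrial chaperonin gene HSPE1 at 960 TPM and the mitochondrial ribosomal protein gene MRPS24 at 283 TPM. In 10 of the 64 loci a parent fell below the cut-off of 0.5 TPM while the read-through gene did not.

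The values of read-through genes were more variable between libraries of the same siRNA than those of other genes, also below 5 TPM, where the levels were alike. On the log2(TPM + 0.5) scale, the SD between libraries of a group had a median of 0.234 for the 64 read-through genes, 0.126 for the 116 parents and 0.135 for all tested genes. At a mean of 5 TPM or more it was 0.167 for 29 read-through genes and 0.118 for 10353 genes, and below 5 TPM it was 0.372 for 35 read-through genes and 0.187 for 5947 genes. The median level was 8.2 TPM against 21.5 TPM in the upper class and 1.54 TPM against 1.68 TPM in the lower. The upper class thus does not compare like levels. In 21 of the 64, or 32.8%, the libraries of at least 1 group differed over 2-fold, against 5 of the 116 parents and 7.28% of all tested genes. CORO7-PAM16, which is named here after its values were seen, had 0.14 and 1.38 TPM in scramble libraries and 2.25 and 0.07 TPM in SETD2 siRNA libraries. The median SD was 0.319 for the 19 genes without an exonic base of their own, 0.222 for 19 with fewer than 10% and 0.276 for 25 with 10% or more. These differences in spread are described and were not tested.

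**Figure D2:**
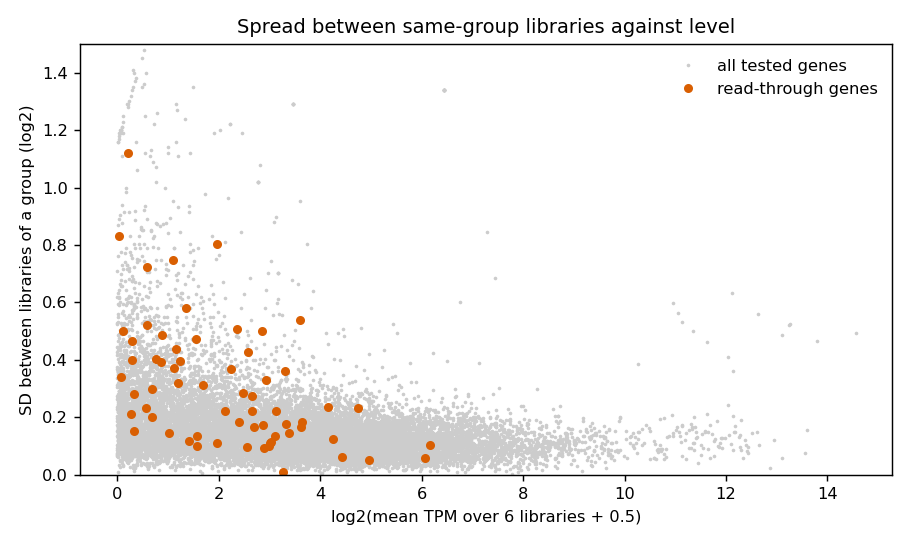
SD between same-siRNA libraries on the log2 scale, pooled over the 3 groups, against the mean level as log2(TPM + 0.5) for all tested genes (grey) and the 64 read-through genes (orange). Orange points lie both within the dense grey band and above its upper edge, with medians of 0.234 and 0.135 over all levels, and 94 grey points lie above the top of the axis.

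Each siRNA was then compared with the scramble libraries. The test was limma on log2(TPM + 0.5) with all 6 libraries and all 16300 genes in 1 fit, and a gene was called at a Benjamini-Hochberg adjusted p under 0.05 over all tested genes and a fold change above 1.5. With 2 libraries in each group, the smallest two-sided p of an exact permutation test would be 0.333, so none was used. The cut-off on the mean of all libraries lets in a gene that is high in 1 group only, and 8 of the 64 had a group mean under 0.5 TPM, INO80B-WBP1 among them. The counts and medians over the 64 are therefore descriptions. Both comparisons with scramble siRNA use the same 2 control libraries.

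Upon SETD2 depletion, INO80B-WBP1 rose and it was the only read-through gene called, 1 of 64, where 0.104% of all tested genes were called. INO80B encodes a subunit of the INO80 chromatin remodelling complex and WBP1 a WW domain-binding protein. INO80B-WBP1 (ENSG00000274049, chr2:74455088-74460884, plus strand) was listed at 0.20 and 0 TPM in scramble libraries, at 2.71 and 4.15 TPM in SETD2 siRNA libraries, and at 2.10 and 1.61 TPM in hnRNP L siRNA libraries. The scramble libraries were the 2 lowest and the SETD2 siRNA libraries the 2 highest of the 6, with no overlap between any groups. The log2 fold change was 2.71 (SE 0.262, limma adjusted p = 0.00603), a value that depends on the added 0.5 TPM because the scramble level is near 0. The 2 other scales tried gave 4.32 with 0.1 TPM added and 2.00 with 1 TPM added. The call was lost without scramble siRNA replicate 1 (adjusted p = 0.077), without scramble siRNA replicate 2 (0.0586), without SETD2 siRNA replicate 3 (0.0764) and when genes of every level were tested (0.209), at log2 fold changes between 2.44 and 2.95.

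**Figure D3:**
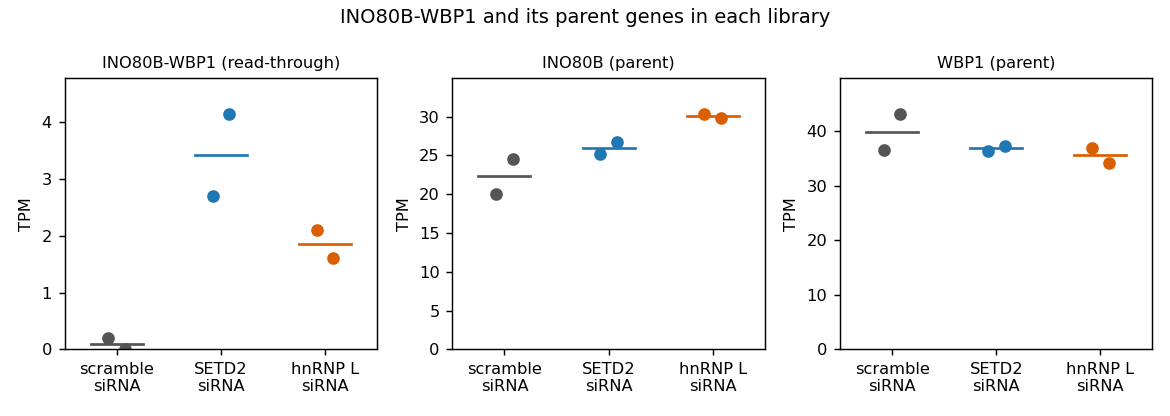
TPM of INO80B-WBP1 and of its parents INO80B and WBP1 in each library (points) with the mean of 2 libraries per siRNA (lines), each axis starting at 0. The read-through gene is at 0.20 and 0 TPM in scramble libraries and between 1.61 and 4.15 TPM in the other 4, while the parents stay between 20.1 and 30.4 TPM and between 34.2 and 43.2 TPM.

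Neither parent of INO80B-WBP1 was called. INO80B had 20.1 and 24.5 TPM in scramble libraries, 25.2 and 26.7 TPM in SETD2 siRNA libraries, and 30.4 and 29.8 TPM in hnRNP L siRNA libraries. WBP1 had 36.5 and 43.2 TPM in scramble libraries, 36.5 and 37.3 TPM in SETD2 siRNA libraries, and 37.0 and 34.2 TPM in hnRNP L siRNA libraries. The sum over the locus lay between 56.8 and 69.4 TPM in the 6 libraries and changed by a log2 value of 0.09 (SE 0.112) upon SETD2 depletion and 0.12 (SE 0.112) upon hnRNP L depletion, with limma adjusted p of 0.747 and 0.520. The share of the read-through gene in that sum was 0.352% and 0% with scramble siRNA, 4.21% and 6.09% with SETD2 siRNA, and 3.02% and 2.46% with hnRNP L siRNA.

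The other 63 read-through genes were not called upon SETD2 depletion. The median log2 fold change of the 64 was 0.00, against 0.01 for all tested genes, and 32 lay on either side of 0. An unadjusted p under 0.05 was reached by 14 of the 64, or 21.9%, and by 13.1% of all tested genes. Both SETD2 siRNA libraries lay above both scramble libraries in 18 of the 64, or 28.1%, against 22.9% of all tested genes, and below both in 11, or 17.2%, against 20.6%. NME1-NME2 had 60.3 and 63.9 TPM in scramble libraries and 107 and 98.5 TPM in SETD2 siRNA libraries, a log2 difference of 0.73 (SE 0.108, limma adjusted p = 0.0599). RPL36A-HNRNPH2, which joins a ribosomal protein gene to an hnRNP H gene, had 4.61 and 5.21 TPM in scramble libraries and 9.23 and 8.56 TPM in SETD2 siRNA libraries, a log2 difference of 0.80 (SE 0.131, limma adjusted p = 0.0851). EEF1E1-BLOC1S5, named here after its values were seen, stood at 0 in both SETD2 siRNA libraries against 1.66 and 1.22 TPM in scramble libraries, and it missed the threshold (limma adjusted p = 0.125). When only the 14596 protein-coding and lncRNA genes were tested, these 3 were called beside INO80B-WBP1, and the count of called read-through genes was 4. The count over all genes rose as well, from 17 of 16300 to 60 of 14596.

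Upon hnRNP L depletion, INO80B-WBP1 rose and CHKB-CPT1B and ARPC4-TTLL3 fell, so that 3 of the 64 were called, or 4.69%, where 6.76% of all tested genes were called. These shares are close, and no result about the read-through genes is read from them. For INO80B-WBP1 the log2 fold change was 1.99 (SE 0.262, limma adjusted p = 0.00455), and the call was lost without hnRNP L siRNA replicate 1 (adjusted p = 0.0588) and when genes of every level were tested (0.0574). With 0.1 TPM added in place of 0.5 the log2 fold change was 3.49, and with 1 TPM added it was 1.38.

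CHKB-CPT1B (ENSG00000254413, chr22:50568869-50582965, minus strand) joins the gene of choline kinase beta to that of the muscle isoform of carnitine palmitoyltransferase 1. It had 11.5 and 11.8 TPM in scramble libraries, 7.73 and 7.89 TPM in SETD2 siRNA libraries, and 4.47 and 5.74 TPM in hnRNP L siRNA libraries. No groups overlapped, and the hnRNP L siRNA libraries were lowest. Its log2 fold change upon hnRNP L depletion was -1.12 (SE 0.140, limma adjusted p = 0.00362), and it was called without each library in turn, at adjusted p between 0.0192 and 0.045. The downstream parent CPT1B fell as well, from 25.8 and 21.9 TPM to 12.4 and 12.0 TPM (log2 fold change -0.93, SE 0.116, limma adjusted p = 0.00361). The upstream parent CHKB was at 26.7 and 26.9 TPM in scramble libraries and at 30.04 and 29.5 TPM in hnRNP L siRNA libraries, and was not called. The parent that holds the 3′ end of the read-through RNA was thus the one called.

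ARPC4-TTLL3 (ENSG00000250151, chr3:9793082-9835401, plus strand) joins a subunit gene of the actin-nucleating Arp2/3 complex to a tubulin glycylase gene. It had 9.37 and 7.92 TPM in scramble libraries, 6.59 and 10.5 TPM in SETD2 siRNA libraries, and 5.10 and 3.59 TPM in hnRNP L siRNA libraries, so that the hnRNP L siRNA libraries lay below the other 4. The log2 fold change was -0.93 (SE 0.228, limma adjusted p = 0.0348). The call was lost without either scramble library or either hnRNP L siRNA library (adjusted p from 0.0953 to 0.196), after median-ratio scaling (0.0613) or quantile normalization (0.0704), without a variance trend (0.0714) and when genes of every level were tested (0.168). TTLL3 fell from 12.2 and 11.8 TPM to 5.41 and 7.96 TPM (log2 fold change -0.82, SE 0.168, limma adjusted p = 0.0199), and ARPC4, at 20.0 and 25.4 TPM and at 16.7 and 20.1 TPM, was not called.

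Beyond these 3, the median log2 fold change of the 64 upon hnRNP L depletion was -0.22, against -0.08 for the 116 tested parents and for all tested genes. Of the 64, 43 lay below 0. Both hnRNP L siRNA libraries lay below both scramble libraries in 27 of the 64, or 42.2%, against 37.8% of all tested genes, and above both in 14, or 21.9%, against 18.8%. An unadjusted p under 0.05 was reached by 40.6% of the 64 and by 28.4% of all tested genes. SYNJ2BP-COX16 and RPL36A-HNRNPH2 passed the adjusted p but stayed under the 1.5-fold limit, with log2 fold changes of 0.54 (SE 0.113, limma adjusted p = 0.0217) and 0.48 (SE 0.131, limma adjusted p = 0.0486). SYNJ2BP-COX16, named after its values were seen, had 7.65 and 7.67 TPM in scramble libraries and 11.3 and 11.3 TPM in hnRNP L siRNA libraries. The split of the called read-through genes depended on the scaling between libraries. It was 1 higher and 2 lower in the deposited TPM and 4 higher and 1 lower after quantile normalization, while the share of all called genes that were lower moved from 74.0% to 53.2%. Testing only protein-coding and lncRNA genes gave 9 called read-through genes, with 3 higher and 6 lower. Over all genes 1288 of 14596 were then called, against 1102 of 16300 before.

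**Figure D4:**
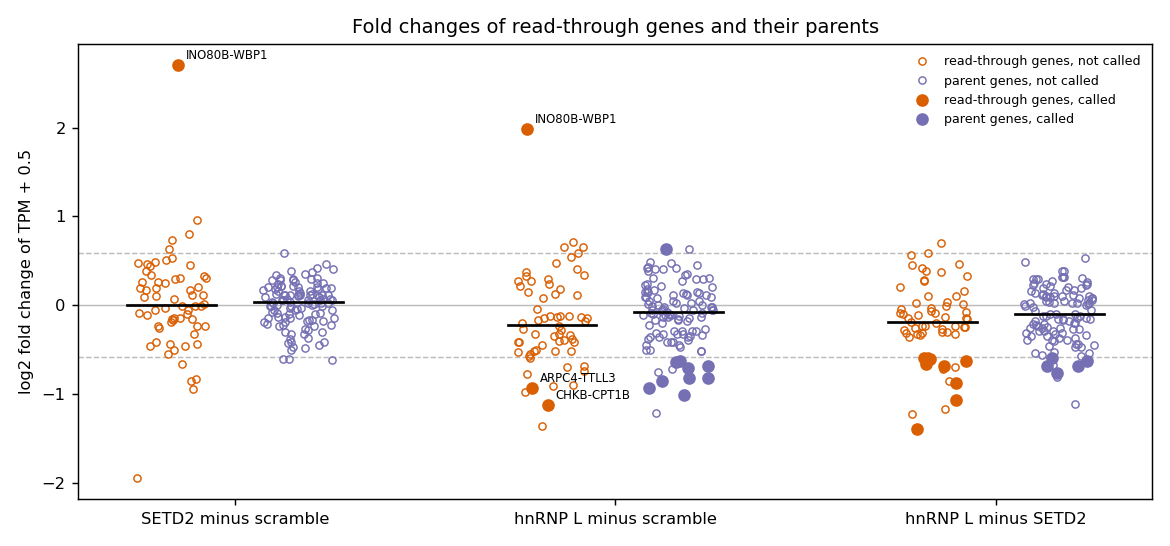
Log2 fold changes on the log2(TPM + 0.5) scale for the 64 read-through genes (orange) and the 116 tested parents (purple) in the 3 comparisons, with filled circles for called genes, black lines for medians and dashed lines at a fold change of 1.5. INO80B-WBP1 stands at 2.71 and 1.99 above the rest in the first 2 comparisons, and the called genes of the third are 8 read-through genes and 5 parents, all below 0.

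The parent genes were followed by the same test. Upon SETD2 depletion, 0 of 116 were called by limma, where 0.104% of all tested genes were called. An unadjusted p under 0.05 was reached by 16 parents, or 13.8%, and by 13.1% of all tested genes. Upon hnRNP L depletion, 10 of 116 were called, or 8.62%, with 1 higher and 9 lower. Over all tested genes 6.76% were called, and 74% of the called ones were lower. Downstream parents made up 8 of the 10, or 14.3% of the 56 tested, and upstream parents 2, or 3.33% of the 60 tested. The difference between the sides was not tested. Besides CPT1B and TTLL3, SAPCD1 fell from 7.28 and 7.24 TPM to 2.92 and 3.82 TPM (log2 fold change -1.01, SE 0.157, limma adjusted p = 0.00785). The single parent that rose was C17orf49, which lies downstream of RNASEK. Fewer parents were called when any single library was left out, and fewest without scramble siRNA replicate 1 or either hnRNP L siRNA library. Fewer of all tested genes were called in each of those fits too.

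The hnRNP L and SETD2 siRNA libraries were also compared directly, in the same fit of all 6 libraries, so that the scramble libraries enter the estimate of the spread but not the difference. Here 8 of the 64 read-through genes were called, or 12.5%, and all 8 were lower with hnRNP L siRNA. Over all tested genes 6.84% were called and 4.69% were called lower. The median log2 difference of the 64 was -0.20, against -0.10 for all tested genes, and 0 of the 64 were called higher. While 11 passed the adjusted p alone, 18 had an unadjusted p under 0.05, or 28.1%, against 28.5% of all tested genes. Both hnRNP L siRNA libraries lay below both SETD2 siRNA libraries in 31.2% of the 64, against 41.2% of all tested genes. They lay above both in 10.9% of the 64, against 18.6%. The share called was thus above that of all tested genes, the unadjusted share near it and the shares without overlap below it. These differences were not tested.

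NME1-NME2 (ENSG00000011052, chr17:51153590-51171744, plus strand) had 60.3 and 63.9 TPM in scramble libraries, 107 and 98.5 TPM in SETD2 siRNA libraries, and 45.5 and 52.4 TPM in hnRNP L siRNA libraries. The 3 groups did not overlap, with the scramble libraries in the middle. The log2 difference between hnRNP L and SETD2 siRNA was -1.07 (SE 0.108, limma adjusted p = 0.00183), and it was called without each library in turn, at adjusted p between 0.00869 and 0.0386. Neither parent was called. NME1 had 451 and 414 TPM in SETD2 siRNA libraries and 519 and 499 TPM in hnRNP L siRNA libraries, and NME2 had 985 and 979 TPM in SETD2 siRNA libraries and 1242 and 1202 TPM in hnRNP L siRNA libraries.

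COMMD3-BMI1, which ends in the gene of the Polycomb protein BMI1, had 15.1 and 18.5 TPM in scramble libraries, 23.0 and 25.1 TPM in SETD2 siRNA libraries, and 14.6 and 15.03 TPM in hnRNP L siRNA libraries. The hnRNP L siRNA libraries lay below the other 4 and the SETD2 siRNA libraries above the other 4, and the log2 difference between them was -0.68 (SE 0.125, limma adjusted p = 0.0142). COMMD3 and BMI1 were not called. TPTEP2-CSNK1E, which joins a transcribed pseudogene to the casein kinase 1 epsilon gene, had 2.33 and 1.24 TPM in scramble libraries, 1.86 and 3.63 TPM in SETD2 siRNA libraries, and 0.65 and 0.71 TPM in hnRNP L siRNA libraries. Its log2 difference was -1.40 (SE 0.310, limma adjusted p = 0.0255), and the hnRNP L siRNA libraries again lay below the other 4.

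ISY1-RAB43 joins a splicing factor gene to a small GTPase gene and had 3.54 and 3.18 TPM in scramble libraries, 3.95 and 4.63 TPM in SETD2 siRNA libraries, and 2.63 and 2.41 TPM in hnRNP L siRNA libraries. ANKHD1-EIF4EBP3, which ends in the gene of an eIF4E-binding protein, had 11.7 and 9.34 TPM, 11.5 and 12.2 TPM, and 8.14 and 7.29 TPM in the same order of groups. BORCS8-MEF2B, which joins a gene of a lysosome-positioning complex to a MEF2 transcription factor gene, had 5.62 and 6.11 TPM, 7.37 and 7.37 TPM, and 3.94 and 5.31 TPM. In each of these 3 genes the hnRNP L siRNA libraries lay below the 4 others. RBAK-RBAKDN joins a KRAB zinc finger gene to a noncoding neighbour and had 2.63 and 2.92 TPM, 3.12 and 2.74 TPM, and 1.64 and 1.84 TPM. The log2 differences between hnRNP L and SETD2 siRNA in these 4 genes were -0.66 for ISY1-RAB43, -0.59 for ANKHD1-EIF4EBP3, -0.63 for BORCS8-MEF2B and -0.61 for RBAK-RBAKDN, at limma adjusted p between 0.0307 and 0.0472. ARPC4-TTLL3 completed the 8 with -0.88 (SE 0.228, limma adjusted p = 0.0431).

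**Figure D5:**
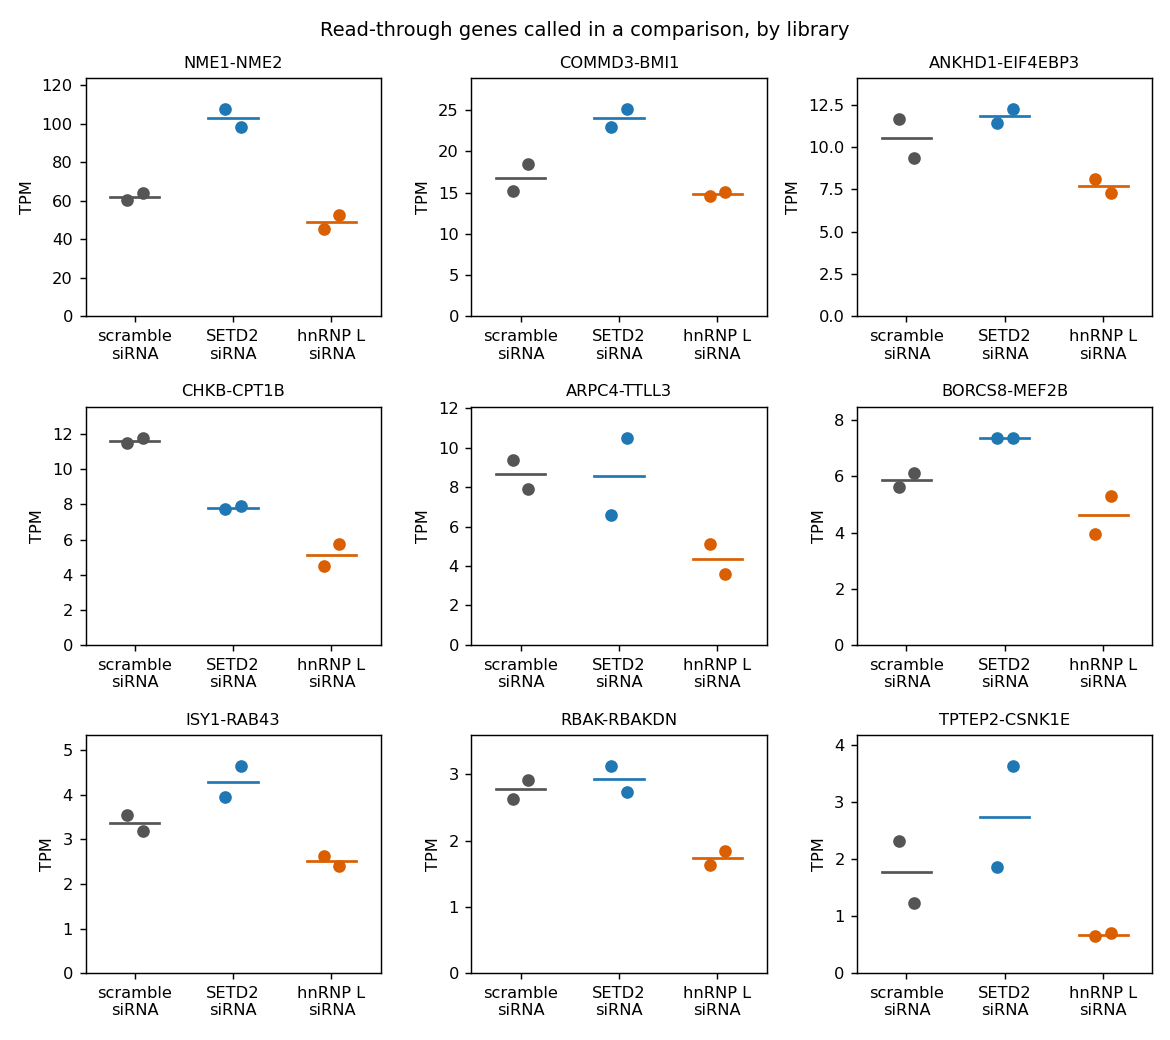
TPM in each library (points) and the mean of 2 libraries per siRNA (lines) for the 9 read-through genes other than INO80B-WBP1 that were called in a comparison, each axis starting at 0. In all 9 panels both hnRNP L siRNA libraries lie below both libraries of each other siRNA, and the SETD2 siRNA libraries are above the scramble libraries in NME1-NME2, COMMD3-BMI1, BORCS8-MEF2B and ISY1-RAB43.

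The parents of these genes did not pass as calls, apart from ARPC4. The upstream parent ISY1 came nearest, at 42.1 and 42.3 TPM in scramble libraries, 55.6 and 57.3 TPM in SETD2 siRNA libraries, and 38.1 and 43.4 TPM in hnRNP L siRNA libraries, with a log2 difference of -0.47 (SE 0.103, limma adjusted p = 0.0251) that stayed under the 1.5-fold limit. RAB43 lay between 1.19 and 1.77 TPM, below the read-through gene in every library. ANKHD1 had 40.6 and 50.2 TPM in SETD2 siRNA libraries and 56.0 and 62.8 TPM in hnRNP L siRNA libraries, and BORCS8 had 16.8 and 16.2 TPM and 20.4 and 20.7 TPM. In both loci the hnRNP L siRNA libraries were thus the higher for the upstream parent and the lower for the read-through gene. CSNK1E, the downstream parent of TPTEP2-CSNK1E, lay between 269 and 358 TPM, and the read-through gene took at most 1.17% of the locus in any library. EIF4EBP3, MEF2B and RBAKDN were at or below 1.07 TPM throughout, so that in 3 of the 8 loci nearly all of the sum was the upstream parent and the read-through gene.

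These calls between the 2 depletions rested on few libraries. Of the 8, only NME1-NME2 was called without each of the SETD2 and hnRNP L siRNA libraries in turn. The other 7 were lost without any 1 of those 4 libraries, and without either scramble library ARPC4-TTLL3, BORCS8-MEF2B and RBAK-RBAKDN were lost. Calls over all tested genes fell in each of these fits too, so the losses are not particular to the read-through genes. The count of 8 became 2 after median-ratio scaling, namely NME1-NME2 and TPTEP2-CSNK1E, and 3 after quantile normalization, with ISY1-RAB43 added. After median-ratio scaling and after quantile normalization 3 of 116 parents were called, with 2 higher and 1 lower each time. In the deposited TPM, where 6.84% of all tested genes were called, 5 of 116 parents were called, or 4.31%, all lower with hnRNP L siRNA. They were ARPC4, BOLA2, GPRASP2, SAPCD1 and ST20, of which GPRASP2 and ST20 are named after their values were seen, and the count was 0 without either SETD2 siRNA library.

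The read-through genes were also grouped by structure. Single members ranged from a log2 fold change of -1.95 to 2.71 upon SETD2 depletion and from -1.36 to 1.99 upon hnRNP L depletion. Upon SETD2 depletion the median log2 fold change was 0.16 for the 8 whose parents overlap, -0.03 for the 24 with parents under 5 kb apart and -0.01 for the 31 with parents farther apart. Upon hnRNP L depletion the same medians were 0.06, -0.35 and -0.15. By reading frame, the medians upon hnRNP L depletion were -0.17 for the 30 in frame with both parents, -0.20 for the 11 in frame with the upstream parent, -0.57 for the 5 in frame with the downstream parent, 0.28 for the 2 in frame with neither and -0.27 for the 16 without a coding transcript. The 5 genes with only decay-class transcripts, INO80B-WBP1 among them, had medians of 0.17 upon SETD2 depletion and 0.15 upon hnRNP L depletion. Their levels ranged from a mean of 0.585 TPM to 30.5 TPM for HNRNPUL2-BSCL2, which had 26.4 and 28.4 TPM in scramble libraries, 30.1 and 31.7 TPM in SETD2 siRNA libraries, and 32.7 and 33.4 TPM in hnRNP L siRNA libraries, and was not called. No test was made between these groups.

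Whether a read-through gene moved differently from its parents was tested on the ratio of their levels. The difference of log2(TPM + 0.5) between read-through gene and parent was fitted for 118 pairs in which both passed the cut-off, together with the ratios of neighbouring genes on the same strand, 16211 rows in all. Upon SETD2 depletion, 0 of the 118 were called by limma, where 0.0432% of all ratios were called, and 15 had an unadjusted p under 0.05. The ratios of INO80B-WBP1 to INO80B and to WBP1 changed by 2.48 (SE 0.305) and 2.81 (SE 0.298) on the log2 scale, at limma adjusted p of 0.165 and 0.0871. Upon hnRNP L depletion, 4 of the 118, or 3.39%, were called, where 5.31% of all ratios were called. INO80B-WBP1 rose against both parents, by a log2 value of 1.55 against INO80B (SE 0.305, limma adjusted p = 0.0487) and 2.14 against WBP1 (SE 0.298, limma adjusted p = 0.027). Its mean was 0.1 TPM in scramble libraries, so it passed the cut-off through the other groups, and all its ratio changes depend on the added 0.5 TPM. With 0.1 TPM added, only 1 of the 118 ratios was called higher upon hnRNP L depletion, so INO80B-WBP1 was no longer called against both parents. CHKB-CPT1B fell against CHKB (log2 change -1.27, SE 0.168, limma adjusted p = 0.025), from 42.9% and 43.8% of the CHKB level with scramble siRNA to 14.9% and 19.4% with hnRNP L siRNA. PALM2-AKAP2 rose against PALM2, a paralemmin gene, by 0.94 (SE 0.175, limma adjusted p = 0.0443), from 108% and 100% of the PALM2 level to 277% and 367%. PALM2 was low, at 1.31 and 0.71 TPM in scramble libraries and 0.35 and 0.45 TPM in hnRNP L siRNA libraries, so that this change depends on the added 0.5 TPM. With 0.1 TPM added it was 1.41, and with 1 TPM added it was 0.67 and no longer called (adjusted p = 0.054). PALM2-AKAP2 by itself was not called (log2 fold change 0.22, SE 0.293, limma adjusted p = 0.661). With the library number as a replicate block the count was 0, where 12 of all 16211 ratios were called. Each of these 4 calls was also lost when any single library was left out. Calls over all ratios fell in each of those fits too.

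Between hnRNP L and SETD2 siRNA, 6 of the 118 ratios were called, or 5.08%, where 6.35% of all ratios were called. NME1-NME2 fell against both parents, by -1.30 against NME1 and -1.38 against NME2 on the log2 scale (limma adjusted p = 0.0247 and 0.023). It was at 23.8% of the NME1 level in both SETD2 siRNA libraries and at 8.76% and 10.5% in the hnRNP L siRNA libraries. CHKB-CPT1B fell against CHKB by -1.10, ANKHD1-EIF4EBP3 against ANKHD1 by -0.98 and BORCS8-MEF2B against BORCS8 by -0.94, at limma adjusted p between 0.0322 and 0.0469. MSH5-SAPCD1, which joins a meiotic MutS homologue gene to SAPCD1, rose against SAPCD1 by 1.07 (limma adjusted p = 0.0476), as SAPCD1 itself fell while the read-through gene had 4.31 and 4.49 TPM in SETD2 siRNA libraries and 6.27 and 5.45 TPM in hnRNP L siRNA libraries. Each of the 6 calls was lost when any SETD2 or hnRNP L siRNA library was left out, and some were lost without either scramble library. Calls over all ratios fell in each of those fits too.

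Each locus was also tested as the sum of its TPM. The sum still depends on how shared reads were divided, since TPM are scaled by the length of the gene to which a read was assigned. Of the 63 locus sums, 0 were called by limma upon SETD2 depletion, with 8 at an unadjusted p under 0.05, where 0.0989% of all rows were called. Upon hnRNP L depletion 1 of the 63 was called, or 1.59%, where 6.79% of all rows were called. This call was lost without hnRNP L siRNA replicate 1, a fit in which fewer of all rows were called too. Between hnRNP L and SETD2 siRNA, 1 of the 63 was called, where 6.82% of all rows were called. This was the ARPC4-TTLL3 locus, whose sum was 41.6 and 45.1 TPM in scramble libraries, 51.4 and 46.5 TPM in SETD2 siRNA libraries, and 27.2 and 31.7 TPM in hnRNP L siRNA libraries (log2 difference -0.73, SE 0.115, limma adjusted p = 0.00877). Its read-through gene, also called lower in that comparison, thus fell together with the whole locus sum. The locus call was lost without SETD2 siRNA replicate 2 (adjusted p = 0.0844), SETD2 siRNA replicate 3 (0.0651) or hnRNP L siRNA replicate 1 (0.0965). The median change of the 63 sums upon hnRNP L depletion was -0.06, against -0.22 for the read-through genes alone.

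The factors that end transcription were examined as a list of 32 cleavage, polyadenylation and termination genes, 31 of which were tested while the other was not analysed here. Upon SETD2 depletion 0 of the 31 were called by limma, where 0.104% of all tested genes were called. An unadjusted p under 0.05 was reached by 3, or 9.68%, and by 13.1% of all tested genes. Upon hnRNP L depletion 3 of the 31 were called, or 9.68%, with 1 higher and 2 lower, where 6.76% of all tested genes were called. No result about the list as a whole is read from this count. The median of the list was -0.03 against -0.08 for all tested genes. XRN2, the 5′ to 3′ exonuclease that acts on the RNA downstream of the cleavage site, fell from 50.9 and 54.7 TPM in scramble libraries to 18.0 and 19.3 TPM in hnRNP L siRNA libraries (log2 fold change -1.48, SE 0.106, limma adjusted p = 0.000412), and had 48.3 and 53.7 TPM in SETD2 siRNA libraries. PPP1R10, which encodes the PNUTS subunit of a protein phosphatase 1 complex that slows the polymerase at gene ends, fell from 25.3 and 23.0 TPM to 11.3 and 7.96 TPM (log2 fold change -1.30, SE 0.186, limma adjusted p = 0.00599). CSTF3, a subunit of the cleavage stimulation factor, rose from 59.3 and 56.5 TPM to 88.0 and 93.8 TPM (log2 fold change 0.65, SE 0.0946, limma adjusted p = 0.00638). XRN2 was called without each library in turn, whereas PPP1R10 was lost without scramble siRNA replicate 1 (adjusted p = 0.0656) or hnRNP L siRNA replicate 2 (0.0567) and CSTF3 without either hnRNP L siRNA library (0.0679 and 0.0712). Their part in the levels of read-through genes was not tested.

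Summed over the 64 genes, read-through RNA made up 469 and 474 TPM in scramble libraries, 557 and 547 TPM in SETD2 siRNA libraries, and 440 and 448 TPM in hnRNP L siRNA libraries. The 3 groups did not overlap, but NME1-NME2 and FMC1-LUC7L2, the 2 highest members, carry a large part of each sum. The median share of the locus, which weights every gene alike, was 6.76% and 5.91% with scramble siRNA, 6.15% and 6.53% with SETD2 siRNA, and 5.83% and 5.19% with hnRNP L siRNA. Here the SETD2 siRNA libraries lay within the range of the scramble libraries and the hnRNP L siRNA libraries below it.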

How the data were processed

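RNA was ribodepleted and polyA-enriched, and paired reads were aligned by the authors with STAR 2.6.1c to hg38 under the Ensembl 96 annotation. The deposited TPM per gene were estimated by the authors with RSEM 1.3.0, which divides reads shared by overlapping genes between them. The strand setting is not given in the sources used here. The 10 ChIP-seq samples were not analysed here.

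TPM were taken as log2(TPM + 0.5). The 16300 genes with a mean of at least 0.5 TPM entered a linear model of the 3 siRNA means with a variance trend (limma 3.58.1, R 4.3.3), and p-values were adjusted by Benjamini-Hochberg, with calls at an adjusted p below 0.05 and a change over 1.5-fold. Ratios and locus sums were fitted likewise. The scripts were tested on simulated data. Positions, transcripts and sequences come from GENCODE release 44 on hg38, so gene models differ in release from those quantified. Tables were handled with Python 3.11.15, pandas 2.3.3 and pysam 0.24.0.

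Members, lists and tests were chosen with earlier results of these data known. Named are INO80B-WBP1, the called read-through genes with their parents, the 8 highest levels, the 5 highest and 3 lowest shares, the 3 largest called ratio changes per direction, the 2 members on either side of the cut-off, SETD2, HNRNPL and called termination factors. The deviations of same-numbered scramble and hnRNP L siRNA libraries correlated with an r of -0.126 across 16300 genes, so the shared numbers were not taken to pair them. Alternatives were the added TPM, the filter, the gene classes tested, 2 scalings, the variance trend, the fold limit, leaving out each library and a replicate block. Near-identical copies such as SLX1A-SULT1A3 and SLX1B-SULT1A4 are uncertain. A locus called by its sum is not reported here.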

Additional observations from a re-analysis of the deposited data

How the results depend on the processing

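Among the values of single genes and shares of a locus sum under an alternative, 1164 stayed on their side of the threshold or within their SD, 72 lost a call, 8 gained one and 0 called values turned direction. The numbers of called results are given in the order SETD2 siRNA against scramble siRNA, hnRNP L siRNA against scramble siRNA and hnRNP L siRNA against SETD2 siRNA, where the report gives 1, 3 and 8 read-through genes, 0, 10 and 5 parents, and 0, 4 and 6 ratios. With all levels tested, they became 0, 1 and 1 read-through genes, 2 parents in the second and 0 in the third, 0 ratios in the second and 1 in the third, and 0 locus sums in the third. The counts over all genes fell too, from 17, 1102 and 1115 of 16300 to 1, 235 and 186 of 30537. A minimum mean of 1 TPM gave 2 read-through genes in the first, where 27 of 14591 genes were called. Testing only protein-coding and lncRNA genes gave 4 and 9 read-through genes in the first and second, 2 parents in the first, and 1 and 16 ratios. Over all genes 60 and 1288 of 14596 were then called in the first and second. After quantile normalization there were 5 and 3 read-through genes in the second and the third, 6 and 3 parents, and 1 ratio in the first, and after median-ratio scaling 2 read-through genes and 3 parents in the third. Over all 16300 genes, 906 and 900 were called in the second and the third after quantile normalization. After median-ratio scaling 917 were called in the third. With 1 TPM added there were 5 read-through genes in the third and 8 ratios in the second, and with 0.1 TPM added 2 and 3 ratios in the second and the third. Without a variance trend the third gave 5 read-through genes and 2 parents. Without a fold limit the second gave 5 read-through genes, 5 locus sums and 6 termination factors, and the third 11 parents and 5 locus sums.

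Leaving out 1 library at a time, which assumes that the lone library of a group varies like the others, gave 0 to 1, 2 to 3 and 1 to 5 read-through genes, 0, 2 to 7 and 0 to 3 parents, and 0, 0 and 0 to 2 ratios. For hnRNP L depletion it gave 0 to 2 locus sums and 1 to 3 termination factors, and for the third comparison, whose locus sums were added after seeing the data, 0 to 1 locus sums. A replicate block on the numbers shared by scramble and hnRNP L siRNA libraries, which share only a number, gave 3 read-through genes, 8 parents and 0 ratios. With the numbers crossed, a pairing added after seeing the data, the replicate block gave 8 read-through genes and 0 ratios. SETD2 siRNA shares only 1 number with each other group, so no block was fitted for it. Over all 16300 genes, 715 were called with the replicate block and 1406 with the numbers crossed. Over all 16211 ratios the counts were 12 and 18. Without 1 library, fewer genes and ratios were called over the whole table too in the second and the third comparison. In the first, both counts moved either way. Depth behind a single value is unknown, and the causes of these shifts were not tested.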

Other observations

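The 56 read-through names under the cut-off included 44 with a value above 0 in at least 1 library. TMEM256-PLSCR3, the highest of them, had 0.69 and 0.29 TPM in scramble libraries, 0.44 and 0.93 TPM in SETD2 siRNA libraries, and 0.51 and 0.08 TPM in hnRNP L siRNA libraries. PPAN-P2RY11, which joins a ribosome biogenesis gene to a purinergic receptor gene, had 0.33 and 0.42 TPM, 0.77 and 0.59 TPM, and 0.49 and 0.32 TPM in the same order. INS-IGF2, which joins the insulin gene to a growth factor gene, was listed at 0 in every library and is named after its values were seen.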
